A study of Mus musculus with 6 samples.

Results

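The 9 genes described here encode the interleukin-1 family cytokines IL-1β, IL-18 and IL-33, the receptor chains that bind IL-1, and the core of the inflammasome (Il1b, Il18, Il33, Il1r1, Il1rap, Nlrp3, Pycard, Casp1 and Gsdmd). They were picked by gene symbol from the 49315 genes of the deposited count table, and each symbol matched 1 row. Messenger RNA was sequenced from mid-ventricular heart tissue of adult mice in 2 groups of 3. The libraries labelled TET2KO came from mice with an endothelial-specific knockout of Tet2, and those labelled WT from wild-type mice. Both groups had received Angiotensin II, a vasoconstrictor peptide, over 28 days (1.0 mg/kg/day, by osmotic minipump under the skin), which the labels describe as a means to bring about hypertrophy; no untreated mice are compared here. For the Cre driver, deleted exons, strain, sex and exact age the wording of the labels is silent, so these are not known here.

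Library totals ran from 22124844 to 30418909 counted reads. Of all genes, 14370 passed a filter on low counts and were tested, and 8 of the 9 genes were among them; Nlrp3 was not. The label was checked on Tet2 itself, which encodes a dioxygenase that oxidises methylated cytosine in DNA. Tet2 stood at 14.6, 8.01 and 10.4 CPM (the read count scaled to library size, with TMM correction for composition) in the libraries labelled TET2KO, against 4.27, 4.33 and 3.08 CPM in those labelled WT. It was thus higher, not lower, in the libraries labelled TET2KO (log2 fold change 1.49 ± 0.29, adjusted p = 0.0065 by edgeR's quasi-likelihood test), and every direction below follows labels that Tet2 went against. Counts over the whole gene in whole tissue also take in cells other than the endothelium, and the deleted exons are not known. This check therefore cannot decide whether the labels are right. Tet2 (9179 nt) lay 0.12 above the median of 1.38 for genes of like length. With the trend on transcript length and GC content described below removed, Tet2 stood at 0.27 ± 0.17 (adjusted p = 0.21).

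Interleukin-1 signalling works in stages. A sensor such as NLRP3 gathers the adaptor ASC, the product of Pycard, which recruits caspase-1. Caspase-1 cuts the inactive precursors of IL-1β and IL-18 and opens gasdermin D, whose fragment forms the membrane pores through which the cytokines leave and by which the cell may die. Released IL-1β binds the receptor IL1R1 with its partner IL1RAP, while IL-33, a nuclear alarm protein of stromal and endothelial cells, uses the same partner with another receptor. In the heart the system is known for its part in inflammation after injury and under pressure load. RNA levels do not show whether any of these proteins was cut.

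The stretch of DNA just before 4 of the genes is printed because Tet2 acts on methylated cytosine, which in mouse tissue lies mostly in CpG pairs, and because these genes differ in how many such pairs they have there. The sequences are from RefSeq (GRCm38.p6), which held 8 of the 9 genes, all but Gsdmd, and run 5′ to 3′ over the 250 bases before the start of transcription with each CpG in capitals. Il1b (chr2:129371140-129371389, minus strand), Casp1 (chr9:5298267-5298516, plus strand) and Pycard (chr7:127993868-127994117, minus strand) are the 3 genes with the lowest fold changes, and Il1rap (chr16:26581455-26581704, plus strand) has the highest of those tested.
Il1b: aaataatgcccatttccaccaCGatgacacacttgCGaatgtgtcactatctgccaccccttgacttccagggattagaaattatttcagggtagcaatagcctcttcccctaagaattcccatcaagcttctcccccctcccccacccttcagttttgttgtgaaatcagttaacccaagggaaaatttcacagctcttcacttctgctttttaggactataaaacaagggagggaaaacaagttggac
Casp1: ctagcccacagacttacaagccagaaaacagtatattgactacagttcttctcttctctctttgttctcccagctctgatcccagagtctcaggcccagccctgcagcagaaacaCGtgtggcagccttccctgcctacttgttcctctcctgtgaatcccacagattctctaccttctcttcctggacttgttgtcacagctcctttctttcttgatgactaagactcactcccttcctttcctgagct
Pycard: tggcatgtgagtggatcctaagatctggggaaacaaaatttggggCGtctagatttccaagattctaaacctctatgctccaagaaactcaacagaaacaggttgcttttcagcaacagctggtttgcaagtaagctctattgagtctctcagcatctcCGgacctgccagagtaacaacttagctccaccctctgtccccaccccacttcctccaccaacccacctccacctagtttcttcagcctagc
Il1rap: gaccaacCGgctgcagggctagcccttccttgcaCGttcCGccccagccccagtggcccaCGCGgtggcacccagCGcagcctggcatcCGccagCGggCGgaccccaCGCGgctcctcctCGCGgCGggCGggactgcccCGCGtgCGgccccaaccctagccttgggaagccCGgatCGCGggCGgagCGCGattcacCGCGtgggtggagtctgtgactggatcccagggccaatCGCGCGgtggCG
Il1b held 2 CpG pairs, Casp1 1, Pycard 2 and Il1rap 30, against a median of 6 over 32851 RefSeq promoter windows. The other 7 windows of the genes described here, from Il1r1, Il18, Nlrp3 and Il33, held between 1 and 7. Il1rap was therefore the only CpG-rich window among the 8 genes; 94.1% of all windows held fewer. The letters TATAAA stood at -31 to -26 of Il1b and, on the opposite strand, at -175 to -170 of Il18. In Il33 they stood at -203 to -198 of the window at the gene's start. The other Il33 window, at a start 20676 nt inside the gene, had them at -29 to -24. Read on both strands, they were found in 12.4% of all windows. The letters GAGGAAGT, a longer stretch that holds the GGAA core of sites for ETS family factors, occurred on the opposite strand at -44 to -37 of Pycard. The same letters were found in 2.44% of all windows. The NF-kappaB consensus, present in 3.90% of windows, was found in 1 window each of Nlrp3 and Il1r1; the Il1r1 window lies at a start 41506 nt inside the gene. DNA methylation was not analysed here, and these matches are descriptions of sequence.

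Of the 8 tested genes, 4 fell and 0 rose in the libraries labelled TET2KO. Il1b fell furthest, to 0.162 of its level in the libraries labelled WT, followed by Casp1 at 0.314, Pycard at 0.347 and Il33 at 0.622. Il18 and Gsdmd had negative and Il1r1 and Il1rap positive log2 fold changes that did not pass the test. This has to be read against the whole comparison, in which 62.9% of all tested genes passed the test, 33.4% higher and 29.4% lower. The median log2 fold change was -0.99 over the 8 genes and 0.046 over all 14370. In whole tissue, fewer cells of a type and less RNA per cell cannot be told apart.

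**Figure D1:**
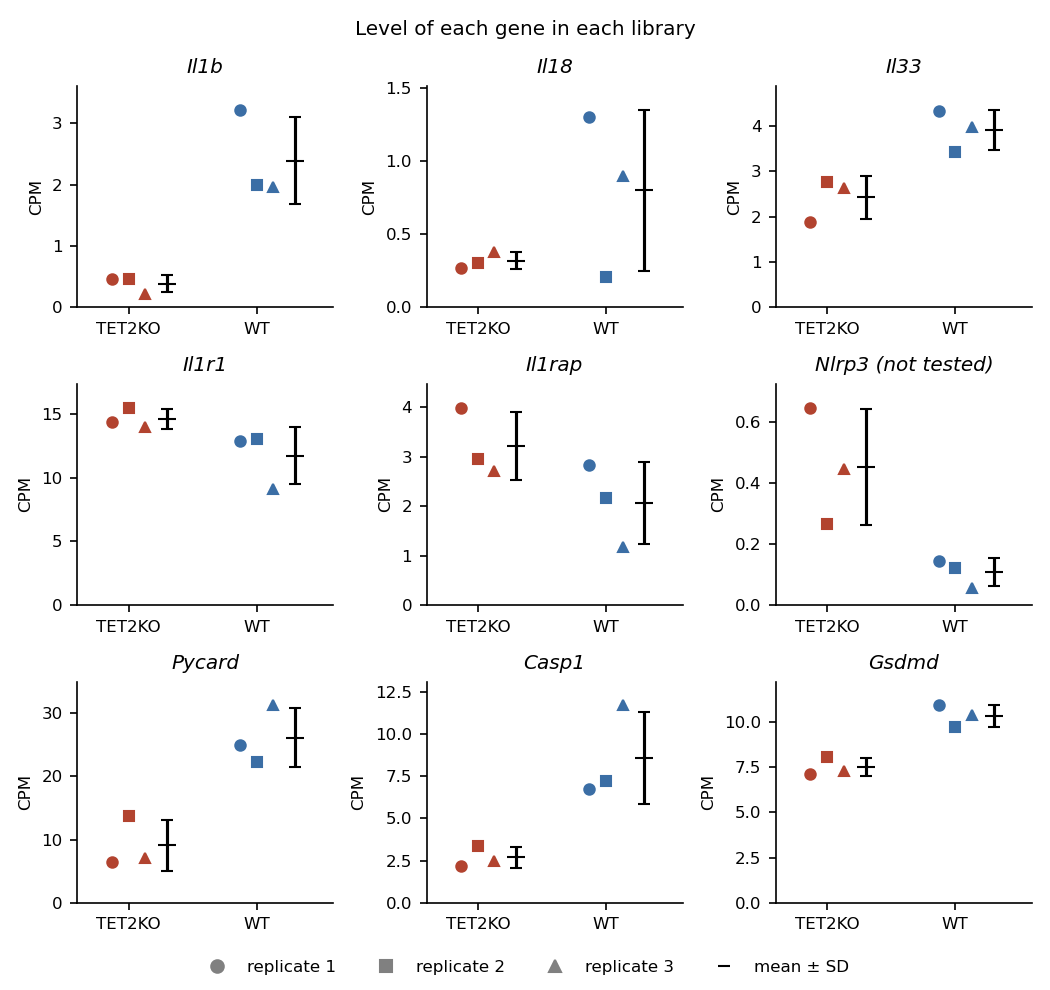
CPM (linear axis from 0) of each of the 9 genes in the 3 libraries labelled TET2KO, left in each panel, and the 3 labelled WT, right; symbols mark replicates and bars the mean ± SD (n = 3). The groups lie apart in 7 of the 9 panels and overlap for Il18 and Il1rap. Over all tested genes, which leave out Nlrp3, they lie apart for 73.5%.

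Il1b, the gene of the main fever-inducing cytokine of the family (ENSMUSG00000027398, GRCm38 chromosome 2, 129364570 to 129371139, minus strand), stood at 0.459, 0.467 and 0.222 CPM in the libraries labelled TET2KO, against 3.22, 2.00 and 1.96 CPM in those labelled WT. The groups did not overlap and lay far apart for a gene at this level. The counts behind these levels were small, with 17, 14 and 7 reads in libraries labelled TET2KO and 67, 49 and 35 in those labelled WT. The log2 fold change was -2.63 ± 0.39 (adjusted p = 0.0065), lower than that of all but 0.146% of the tested genes. Without any single library the value stayed between -2.76 and -2.32 and passed the test.

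Il18, the gene of a cytokine that drives interferon-gamma production (ENSMUSG00000039217, chromosome 9, 50554827 to 50581840, plus strand), had 10, 9 and 12 reads in libraries labelled TET2KO, against 27, 5 and 16 in those labelled WT. In CPM this was 0.270, 0.300 and 0.381 against 1.30, 0.204 and 0.896. The libraries labelled TET2KO lay within the span of those labelled WT, whose replicate 2 was the lowest of all 6. Its log2 fold change was -1.30 ± 0.62 and missed the threshold (adjusted p = 0.097); without WT replicate 2 it was -1.79 and passed (adjusted p = 0.025).

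Il33, the gene of the nuclear alarm cytokine (ENSMUSG00000024810, chromosome 19, 29925114 to 29960718, plus strand), stood at 1.89, 2.77 and 2.64 CPM in libraries labelled TET2KO, against 4.32, 3.43 and 3.98 CPM in those labelled WT. The groups did not overlap, with a gap of less than 1 CPM between them. The log2 fold change was -0.69 ± 0.25 (adjusted p = 0.045). This call was narrow: it was lost without any single library except TET2KO replicate 2 (adjusted p between 0.073 and 0.17 in the other 5 fits). It was also lost when libraries were scaled by their totals alone, where the log2 fold change was -0.26 while the median of all genes moved to 0.47.

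The receptor chains had higher levels in libraries labelled TET2KO that did not pass the test. Il1r1, which encodes the signalling receptor for IL-1 (ENSMUSG00000026072, chromosome 1, 40225080 to 40317257, plus strand), stood at 14.4, 15.5 and 14.0 CPM in libraries labelled TET2KO, against 12.9, 13 and 9.07 CPM in those labelled WT. The groups did not overlap, but the step between them was smaller than the spread among the libraries labelled WT (log2 fold change 0.33 ± 0.20, adjusted p = 0.18). Il1rap, whose product is the shared partner chain (ENSMUSG00000022514, chromosome 16, 26581704 to 26730117, plus strand), stood at 3.99, 2.94 and 2.70 CPM in libraries labelled TET2KO, against 2.83, 2.17 and 1.18 CPM in those labelled WT. Here the groups overlapped (0.63 ± 0.35, adjusted p = 0.15). Scaled by library totals both passed, at 0.74 (adjusted p = 0.024) and 1.06 (adjusted p = 0.042), against a median of all genes of 0.47. In reads within a library, which no scaling changes, Il1r1 exceeded Il1rap by 3.61, 5.27 and 5.19 times in libraries labelled TET2KO and by 4.54, 6.02 and 7.71 times in those labelled WT.

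Nlrp3, the inflammasome sensor (ENSMUSG00000032691, chromosome 11, 59541568 to 59566956, plus strand), had the fewest reads of the 9 in the libraries labelled WT, though not in those labelled TET2KO, where Il18 and Il1b had fewer. It had 24, 8 and 14 reads in libraries labelled TET2KO, against 3, 3 and 1 in those labelled WT. Every library labelled TET2KO was thus above every library labelled WT, while the CPM of Pycard, Casp1 and Gsdmd lay the other way. The summed reads were 46 and 7, a ratio of 4.21 after scaling (exact 95% binomial interval 1.89 to 11, counting error only). Since a filter on low counts removed Nlrp3, no call was made on it; with no filter its log2 fold change was 2.07 ± 0.74 (adjusted p = 0.021), in a fit that called 28.1% of 31220 genes, 16.0% higher and 12.1% lower. With a library left out Nlrp3 passed the filter in 4 fits. As counted it was 2.23 without WT replicate 1 (adjusted p = 0.047) and 2.29 without TET2KO replicate 2 (adjusted p = 0.0035), and missed the threshold without WT replicate 2 (2.10, adjusted p = 0.056) or WT replicate 3 (1.74, adjusted p = 0.065). With the trend removed none of these 4 fits passed, at 1.05 to 1.52 (adjusted p between 0.063 and 0.21).

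The adaptor, the protease and the pore gene of the inflammasome were each lower in every library labelled TET2KO than in any labelled WT. Pycard, which encodes the adaptor ASC (ENSMUSG00000030793, chromosome 7, 127989708 to 127993867, minus strand), stood at 6.42, 13.7 and 7.02 CPM in libraries labelled TET2KO, against 25.0, 22.2 and 31.2 CPM in those labelled WT. The log2 fold change was -1.53 ± 0.32 (adjusted p = 0.0068), and TET2KO replicate 2 lay closest to the libraries labelled WT. Casp1, the gene of caspase-1 (ENSMUSG00000025888, chromosome 9, 5298517 to 5307265, plus strand), stood at 2.21, 3.37 and 2.48 CPM in libraries labelled TET2KO, against 6.77, 7.19 and 11.7 CPM in those labelled WT (-1.67 ± 0.30, adjusted p = 0.0065). WT replicate 3 was the highest library for both genes. Gsdmd, the gene of gasdermin D (ENSMUSG00000022575, chromosome 15, 75862327 to 75867408, plus strand), stood at 7.12, 8.07 and 7.30 CPM in libraries labelled TET2KO, against 10.9, 9.73 and 10.4 CPM in those labelled WT. Its log2 fold change of -0.46 ± 0.18 just missed the threshold (adjusted p = 0.055). It passed with DESeq2 (adjusted p = 0.022), which called 5 of the 8 genes lower and 0 higher and 64.9% of all genes, 31.2% lower and 33.7% higher, and without TET2KO replicate 2 (adjusted p = 0.021). On the TPM scale the Gsdmd groups did not overlap in the opposite direction, at 10.8, 10.1 and 9.95 TPM in libraries labelled TET2KO and 9.57, 9.41 and 8.50 TPM in those labelled WT, so its direction rests on the scaling.

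Counting genes whose CPM did not overlap between the groups gave 6 of the 8 tested, 5 lower and 1 higher. Over all tested genes the share was 73.5%, with 35.5% lower and 38.0% higher. In the authors' deposited table the adjusted p was under 0.05 for 9346 of 14370 genes and for 5 of the 8: Il1b, Casp1, Pycard, Il33 and Gsdmd. The authors' deposited table of significant genes, with 6254 entries out of those 14370, held 3 of them, Il1b (log2 fold change -2.69), Casp1 (-1.72) and Pycard (-1.58).

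Fold changes in this comparison followed the length of the transcript, across all genes and among these ones. Spearman's rho between the log2 fold change and the length of the longest transcript was 0.61 over 14341 genes and 0.69 over the 8 tested here, a description over genes that share the same 6 libraries. The 4 shortest transcripts, of Il18 (885 nt), Il1b (1356 nt), Casp1 (1497 nt) and Gsdmd (1792 nt), all had negative values, and the longest, of Il1rap (4520 nt) and Il1r1 (5819 nt), positive ones. Pycard (3800 nt) and Il33 (2544 nt) lay between. When the tested genes were divided by length into 10 bins of like size, the median of a gene's own bin was -1.29 for Il18, -0.85 for Il1b and Casp1, -0.50 for Gsdmd, -0.022 for Il33, 0.42 for Pycard, 0.66 for Il1rap and 1.02 for Il1r1. Pycard lay 1.95 below the median of its bin, Il1b 1.78 below and Casp1 0.82 below. Il33 and Il1r1 lay 0.66 and 0.69 below theirs, while Il18 (-0.013), Il1rap (-0.024) and Gsdmd (0.038) lay at theirs.

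**Figure D2:**
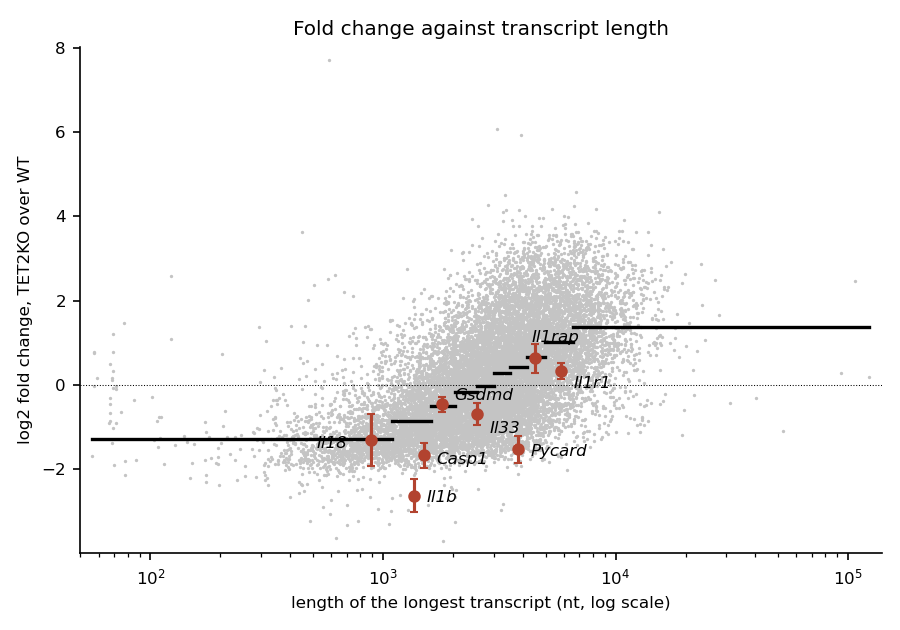
Log2 fold change, libraries labelled TET2KO over those labelled WT, against the length of the longest transcript (log axis) for all tested genes (grey), with the 8 tested genes in red (± SE); black bars are medians of the length bins. Il1b and Pycard lie furthest below the bars, 1.78 and 1.95 under the medians of their bins, with Pycard placed at its GENCODE length of 3800 nt.

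With a smooth trend of each library on transcript length and GC content removed, Il1b and Pycard still fell in the libraries labelled TET2KO and the other calls were lost. The trend-removed log2 fold change was -1.60 ± 0.38 for Il1b (adjusted p = 0.010) and -1.63 ± 0.29 for Pycard (adjusted p = 0.0044). Casp1 stood at -0.58 ± 0.23 (adjusted p = 0.061), past the test only without WT replicate 1 (-0.76, adjusted p = 0.046). Il33 moved to 0.034 ± 0.20 and Il18 to -0.0045 ± 0.57, and Gsdmd to -0.20 ± 0.14. Il1r1 turned to -0.19 ± 0.17 while Il1rap kept 0.68 ± 0.31 (adjusted p = 0.098); without TET2KO replicate 2 both passed, at -0.35 (adjusted p = 0.046) and 0.76 (adjusted p = 0.038). Both rest on the length taken: with merged exon length in the trend Il1r1 stood at 0.25 (adjusted p = 0.22) and Il1rap at 0.18 (adjusted p = 0.62). In this fit 46.2% of all genes passed, 21.9% higher and 24.3% lower, against 2 lower and 0 higher of the 8. A biological difference that itself runs with length would be removed too.

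The value for Pycard depends on where its transcript ends. GENCODE ends the gene 1665 nt beyond the RefSeq gene, so the 3800 nt used for the trend become 2135 nt with the RefSeq end. A transcript of 2135 nt falls in the length bin with a median of -0.17, not 0.42, so the distance of 1.95 also rests on the GENCODE end. With that length the trend-removed log2 fold change of Pycard was -1.12 (adjusted p = 0.0056), and with the merged length of all exons of each gene in the trend it was -1.26 (adjusted p = 0.0063). Its exons also overlap Gm45205 on the opposite strand by 485 nt, a locus with at most 6 reads in any library, and the strand setting of the counting is not known.

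**Figure D3:**
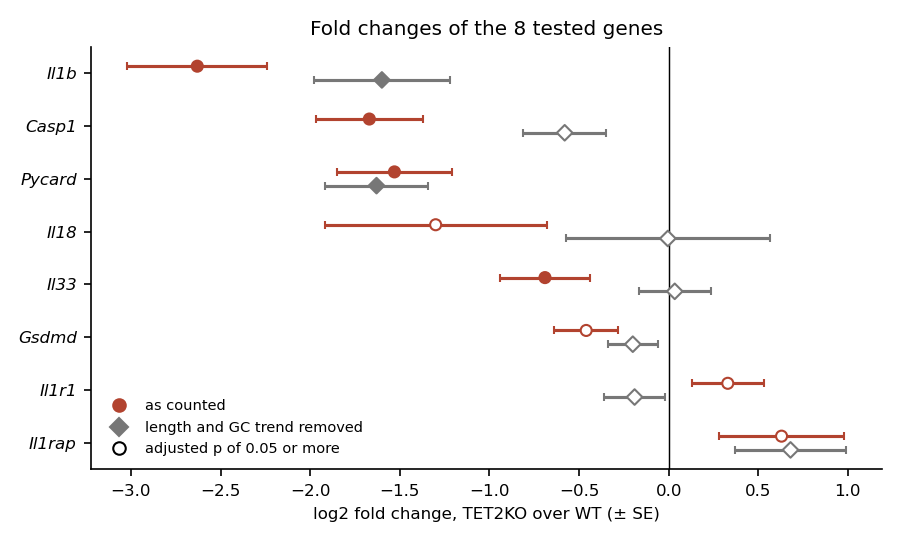
Log2 fold change ± SE, libraries labelled TET2KO over those labelled WT (n = 3 each), for the 8 tested genes as counted (red circles) and with the length and GC trend removed (grey diamonds); open symbols did not pass the test. Il1b and Pycard passed in both fits, Casp1 and Il33 as counted only.

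Ratios of reads within a library do not depend on scaling, and 8 of them, chosen after the values were seen, were compared. The ratio of Il1b to Gsdmd reads was 0.0644, 0.0579 and 0.0304 in libraries labelled TET2KO, against 0.294, 0.206 and 0.189 in those labelled WT. The ratio of Casp1 to Gsdmd was 0.311, 0.417 and 0.339 against 0.618, 0.739 and 1.13. Their transcripts are of similar length (1497 and 1792 nt) but differ in GC content (41.1% and 54.4%). Such ratios keep any trend on length and GC. With that trend removed, the log2 fold changes of Casp1 and Gsdmd were -0.58 and -0.20. The ratio of Pycard to Gsdmd was 0.902, 1.70 and 0.961 against 2.29, 2.28 and 3.02. In these 3 ratios the groups did not overlap, with differences of the mean log2 ratio of -2.22, -1.18 and -1.14. Each had p = 0.10 in a two-sided exact permutation test, the smallest that 3 against 3 libraries allow, and 0.27 adjusted over the 8. The ratio of Il33 to Gsdmd (0.265, 0.343 and 0.361 against 0.395, 0.353 and 0.384) and that of Il1b to Casp1 (0.207, 0.139 and 0.0897 against 0.475, 0.278 and 0.167) overlapped. So did the ratio of Il18 to Il18bp, the gene of the decoy that binds IL-18, at 0.0350, 0.0398 and 0.0440 in libraries labelled TET2KO and 0.135, 0.0189 and 0.110 in those labelled WT (exact permutation p = 0.40).

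Per transcript length, on the authors' TPM scale, the order of the genes differed between the groups. In the libraries labelled TET2KO Gsdmd was the most abundant at 10.3 ± 0.471 TPM (SD, n = 3), above Pycard (5.70 ± 2.05), Il1r1 (5.63 ± 0.440) and Casp1 (4.34 ± 0.593). In those labelled WT Pycard (10.7 ± 1.08) was above Gsdmd (9.16 ± 0.579), Casp1 (8.89 ± 2.25) and Il1r1 (2.91 ± 0.749). The ranges of Pycard and Il1r1 overlapped in the first group, and those of Gsdmd and Casp1 in the second. Among the cytokine genes Il33 led in the libraries labelled TET2KO at 2.04 ± 0.237 TPM, above Il18 (0.751 ± 0.127) and Il1b (0.493 ± 0.190). In those labelled WT Il33 (2.12 ± 0.173), Il1b (1.97 ± 0.579) and Il18 (1.19 ± 0.808) overlapped from neighbour to neighbour. Il1rap stood at 0.701 ± 0.216 TPM in libraries labelled TET2KO, overlapping Il1b and Il18, and at 0.288 ± 0.123 TPM in those labelled WT. Nlrp3 came last in both, at 0.281 ± 0.143 and 0.0424 ± 0.0193 TPM. The length behind a TPM matters for Il1rap, whose merged exons span 11360 nt against 4520 nt for its longest transcript.

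**Figure D4:**
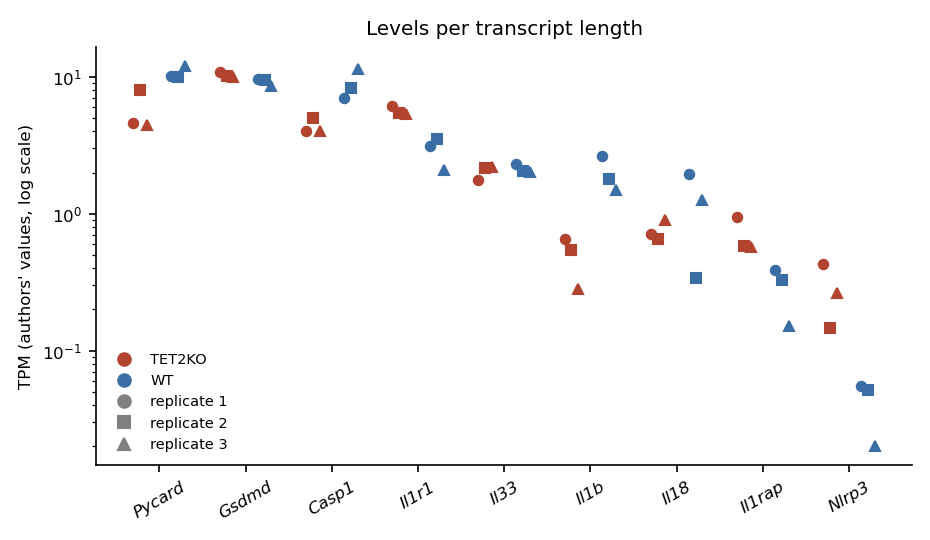
TPM of the 9 genes (authors' values, log axis), libraries labelled TET2KO in red, left, and those labelled WT in blue, right; symbols mark replicates. Gsdmd is the highest gene in red and Pycard in blue by mean, and Nlrp3 the lowest in both.

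The rest of the pathway was described with 7 lists, 98 genes in all, of which 75 were tested. Of these 75, 21 rose and 16 fell, a median log2 fold change of 0.083, and both shares lay below those over all tested genes (33.4% higher and 29.4% lower; 21.9% and 24.3% with the trend removed). The counts of the single lists below are small and are to be read against the same shares. None of the 7 other ligand genes of the family had enough reads to be tested; Il1rn, the gene of the natural IL-1 receptor antagonist, had 6, 0 and 4 reads in libraries labelled TET2KO and 2, 3 and 2 in those labelled WT. Of the receptors and decoys, 4 of 9 were tested and none passed (0 higher, 0 lower). Il1rl1, which encodes the IL-33 receptor ST2, stood at -0.57 ± 0.37 (adjusted p = 0.21), and Il1rl2, the gene of the IL-36 receptor, the lowest p of that list (log2 fold change 0.84 ± 0.37, adjusted p = 0.082).

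The list of signal transducers below the IL-1 receptor also took in Irak3, Tollip and Nfkbia, which restrain the signal, so its counts are not of activators alone. Of its 20 genes 12 rose, 1 fell and 7 did not pass (median 0.55), where 33.4% of all genes rose and 29.4% fell. Irak3 (0.77 ± 0.26, adjusted p = 0.034) and Tollip (0.50 ± 0.15, adjusted p = 0.022) were among those that rose. With the trend removed 8 were higher and 2 lower (median 0.26). Nfkbia was then among the higher genes (0.47 ± 0.15, adjusted p = 0.032), while Irak3 and Tollip did not pass. As counted, the number that rose was 7 without WT replicate 1, without WT replicate 3 or without TET2KO replicate 3. Rela, the gene of the NF-kappaB subunit p65, stood at 18.8 ± 10.9 CPM in libraries labelled TET2KO and 2.24 ± 0.716 CPM in those labelled WT (log2 fold change 3.06 ± 0.53, adjusted p = 0.0065, trend-removed 1.87 ± 0.34). Traf6, a ubiquitin ligase of the receptor complex, rose by 2.09 ± 0.36 (adjusted p = 0.0065, trend-removed 1.23 ± 0.23) and Irak1, its upstream kinase, by 1.38 ± 0.24 (adjusted p = 0.0065, trend-removed 0.51 ± 0.12). Tab2, an adaptor of the kinase TAK1, rose by 0.83 ± 0.16 (adjusted p = 0.0065), with a trend-removed 0.25 ± 0.10 that did not pass.

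A list of other inflammasome sensors also took in related NOD-like receptors, among them Nod1, Nod2 and Nlrx1, so its counts are not of sensors alone. Of its 16 genes 10 were tested, with 5 higher, 1 lower and 4 not past the test (median 0.92). Over all genes 33.4% were higher and 29.4% lower. The 1 lower call was lost without any single library except TET2KO replicate 2. Nlrp10, a NOD-like receptor, rose by 1.01 ± 0.17 and kept 0.85 ± 0.13 with the trend removed (adjusted p = 0.0065 and 0.0040). Nod2, a sensor of bacterial cell walls, rose by 2.00 ± 0.34 and Nlrx1, a mitochondrial member of the family, by 2.09 ± 0.37 (trend-removed 0.59 ± 0.33, not past the test, and 0.56 ± 0.17). Nod1 rose by 1.22 ± 0.30 as counted and turned to -0.46 ± 0.16 with the trend removed, past the test both times. After trend removal the list held 2 higher and 1 lower members, with a median of -0.19.

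The list of caspases and pore formers also took in the adaptor Fadd and Cflar, a regulator of caspase-8, so its counts are not of those kinds alone. Of its 10 tested genes 6 fell, 0 rose and 4 did not pass (median -0.71), where 29.4% of all genes fell. With the trend removed 4 were lower and 0 higher (median -0.24). Fadd was then among the lower genes (-0.97 ± 0.17, adjusted p = 0.0045), but did not pass as counted (-0.33 ± 0.15). The count of 6 was unsteady: 2 fell without WT replicate 2, 2 without WT replicate 3, 3 without TET2KO replicate 1 and 1 without TET2KO replicate 3. On library totals 1 was higher and 2 were lower, and on log2(TPM + 1) 2 were higher and 0 lower. Of all 14370 tested genes, those 2 fits called 6534 higher and 2270 lower, and 7166 higher and 1832 lower. Ninj1, whose product ruptures the membrane of dying cells, fell by 0.95 ± 0.23 on the log2 scale (log2 fold change -0.95, adjusted p = 0.0096, trend-removed -0.61 ± 0.15). Casp8, the initiator caspase of death receptors, stood at -0.76 ± 0.20 (adjusted p = 0.013, trend-removed -0.45 ± 0.15). Casp4, the mouse caspase-11 that senses bacterial lipopolysaccharide, fell as counted (-1.26 ± 0.32, adjusted p = 0.012) and did not pass with the trend removed (-0.21 ± 0.17). The ratio of Casp1 to Casp4 reads overlapped between the groups, at 0.943, 0.660 and 0.796 in libraries labelled TET2KO and 0.758, 1.04 and 1.24 in those labelled WT.

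Among 14 regulators of the inflammasome, 2 rose, 3 fell and 9 did not pass (median -0.35; 1 higher and 4 lower with the trend removed), where 33.4% of all genes rose and 29.4% fell. The number that rose was 0 without any single library except TET2KO replicate 2, and 0 with the replicate block. The number that fell was 1 without WT replicate 1, 2 or 3 or TET2KO replicate 3. Nek7, a kinase that binds NLRP3, stood at 159 ± 54.6 CPM in libraries labelled TET2KO and 286 ± 13.9 CPM in those labelled WT (log2 fold change -0.85 ± 0.26, adjusted p = 0.022, trend-removed -0.89 ± 0.20). Brcc3, which removes ubiquitin from NLRP3, had a log2 fold change of -1.23 ± 0.28 (adjusted p = 0.0084, trend-removed -0.59 ± 0.15), and P2rx4, an ATP-gated channel, one of -0.66 ± 0.21 (adjusted p = 0.026, trend-removed -0.89 ± 0.21). Gbp5, an interferon-induced GTPase, rose by 0.81 ± 0.26 (adjusted p = 0.028, trend-removed 0.96 ± 0.24).

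Genes that IL-1 and NF-kappaB are known to induce were split: of 17 tested, 2 rose, 5 fell and 10 did not pass (median 0.35), where 33.4% of all genes rose and 29.4% fell. The balance turned with the scaling, to 7 higher and 3 lower on library totals and 8 higher and 0 lower on log2(TPM + 1). It turned over all 14370 tested genes too. Library totals called 6534 of them higher and 2270 lower, and log2(TPM + 1) 7166 higher and 1832 lower. Without TET2KO replicate 2, 7 were higher and 4 lower, and 3 were lower without WT replicate 1 or without TET2KO replicate 3. The genes that fell were the cytokine gene Tnf and the chemokine genes Ccl2, Ccl7, Cxcl1 and Cxcl5. Ccl2 stood at 3.54 ± 0.387 CPM in libraries labelled TET2KO and 7.57 ± 1.15 CPM in those labelled WT (log2 fold change -1.10 ± 0.22, adjusted p = 0.0065), and Ccl7 at 2.32 ± 0.594 and 5.84 ± 1.78 CPM (-1.33 ± 0.32, adjusted p = 0.0094). With the trend removed these were 0.19 ± 0.23 and -0.045 ± 0.27, and the list held 4 higher and 0 lower members. The genes that rose encode NF-kappaB subunits, Nfkb2 (2.20 ± 0.44, trend-removed 0.35 ± 0.18, not past the test) and Relb (1.49 ± 0.32, trend-removed 0.68 ± 0.23). Il6 was too rare to test, with 8, 1 and 3 reads in libraries labelled TET2KO and 18, 13 and 8 in those labelled WT.

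**Figure D5:**
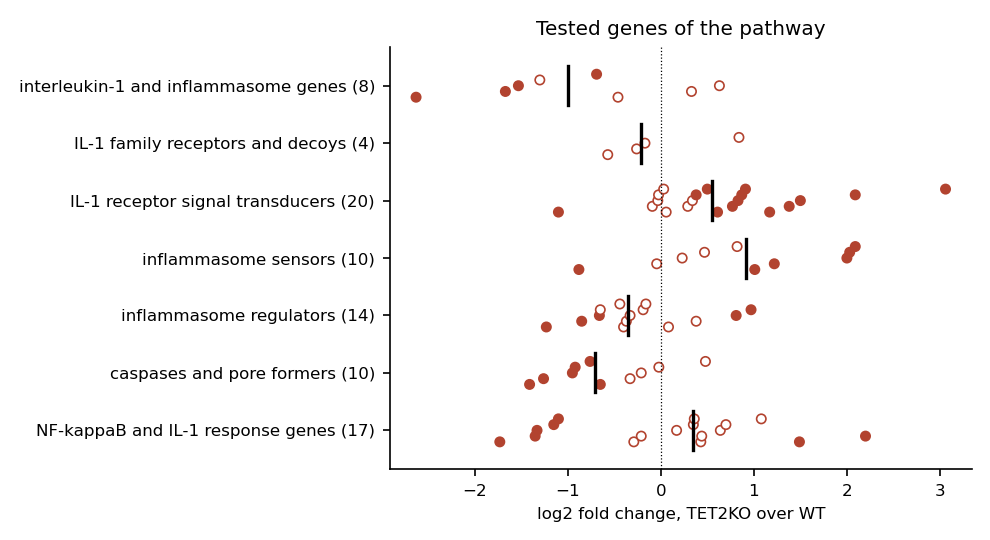
Log2 fold change, libraries labelled TET2KO over those labelled WT, of the tested interleukin-1 and inflammasome genes and of 6 lists of the wider pathway (numbers of tested genes in brackets); filled points passed the test and bars are medians. The list of signal transducers, and that of sensors and related NOD-like receptors, lie mostly to the right of 0, at medians of 0.55 and 0.92. The list of caspases and pore formers, with Fadd and Cflar, lies mostly to the left, at -0.71. With the length and GC trend removed, which is not drawn, these medians were 0.26, -0.19 and -0.24.

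Markers of other cell types were read beside these levels, and some of them differed between the groups. The summed level of 8 macrophage markers was 266 to 417 CPM in libraries labelled TET2KO and 654 to 781 CPM in those labelled WT, but the members divided, 2 higher, 2 lower and 4 not past the test. Lyz2, the lysozyme gene and the most abundant of the list, fell (log2 fold change -1.60 ± 0.32, trend-removed -0.71 ± 0.14). It stood at 187 ± 80.6 CPM in libraries labelled TET2KO and 567 ± 61.8 CPM in those labelled WT. C1qa, the next most abundant, did not pass (-0.43 ± 0.17, adjusted p = 0.055). The 6 neutrophil markers summed to 1.03 to 1.62 CPM in libraries labelled TET2KO and 2.35 to 6.70 CPM in those labelled WT. Of these, Ly6g was at 0 in every library, S100a8 and S100a9 fell (-3.23 ± 0.50 and -2.12 ± 0.45), and only S100a8 did so with the trend removed (-1.94 ± 0.56). The 5 red cell markers summed to 165 to 741 CPM in libraries labelled TET2KO and 1554 to 7037 CPM in those labelled WT, and all 5 were lower in both fits (Hbb-bs, a haemoglobin chain gene, -3.62 ± 0.81). By library, replicates 1, 2 and 3 labelled TET2KO held 0.459, 0.467 and 0.222 CPM of Il1b with red cell sums of 165, 741 and 215 CPM. Those labelled WT held 3.22, 2.00 and 1.96 CPM of Il1b with red cell sums of 7037, 3259 and 1554 CPM. In the same order, libraries labelled WT held 6.77, 7.19 and 11.7 CPM of Casp1 and 25.0, 22.2 and 31.2 CPM of Pycard. Both genes were thus highest in WT replicate 3, where the red cell sum was the lowest of that group. Libraries labelled TET2KO held 2.21, 3.37 and 2.48 CPM of Casp1 and 6.42, 13.7 and 7.02 CPM of Pycard, both highest in replicate 2, as was the red cell sum. The 6 T cell markers summed to 0.967 to 1.48 CPM in libraries labelled TET2KO and 0.720 to 1.90 CPM in those labelled WT and overlapped. The 7 endothelial markers summed to 464 to 815 CPM in libraries labelled TET2KO and 435 to 479 CPM in those labelled WT and overlapped; 5 rose, with Pecam1 at 1.41 ± 0.23, and 2 fell, with Egfl7 at -1.21 ± 0.24. The fibroblast, mural, cardiomyocyte and atrial sums were also lower in every library labelled TET2KO than in any labelled WT. Cardiomyocyte markers summed to 36389 to 41532 CPM against 48224 to 61469 CPM. Members of the fibroblast, mural and cardiomyocyte lists divided between higher and lower, and single abundant genes weigh heavily in such sums. Myl2, the most abundant cardiomyocyte marker, stood at 10309 ± 4171 CPM in libraries labelled TET2KO and 32056 ± 4902 CPM in those labelled WT. Of the 6 cardiomyocyte markers 3 were higher and 2 lower as counted, and 4 higher and 1 lower with the trend removed. Rgs5, the most abundant mural marker, stood at 1161 ± 372 and 1888 ± 116 CPM. The B cell, mast cell, mesothelial and adipocyte sums overlapped. The part of any of these cell types in the levels of Il1b, Pycard and Casp1 was not tested.

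Other genes followed some of these closely over the 6 libraries, as the root mean square difference of mean-centred log2 CPM shows. Nearest to Il33 were Rpl3l (0.031) and Rce1 (0.052), nearest to Gsdmd Thtpa (0.031) and Ltbr (0.039), and nearest to Il1r1 Uprt (0.039) and Slc25a30 (0.045). For Pycard they were Rpp38 (0.052) and Slc35b3 (0.057), and for Il1rap Colec12 (0.11) and Ephb6 (0.12). Casp1 had less close neighbours in Serf1 (0.15) and Cd300c2 (0.17). Il1b had Atp6ap1l (0.20) and Dgkeos (0.31), and Il18, the noisiest of the tested genes, Pbk (0.35) and Nkapl (0.36).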

How the data were processed

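Per the labels' protocols, poly(A) RNA was read in pairs on a NovaSeq instrument; every library has the same batch label. Reads were handled with STAR 2.5.2b, Trimmomatic 0.36, Subread 1.5.2 with featureCounts, and DESeq2, on build GRCm38, per the submitters' processing notes, in which order or role is not stated; annotation release and strand setting were not found. Deposited by the authors were raw counts per gene, TPM values, and tables with log2 fold changes, p-values and a signal per library, the counts divided by a size factor. Columns were matched by library name (0 unmatched).

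Groups were compared with edgeR's quasi-likelihood test (edgeR 4.0.16, R 4.3.3; robust fit, TMM, filterByExpr, group as the only term) on the deposited counts, adjusted over all tested genes by Benjamini-Hochberg at 0.05; standard errors were taken as the size of the log2 fold change divided by √F. Alternatives were library totals alone, no filter, DESeq2 1.42.0, limma 3.58.1 on log2(TPM + 1), a replicate block, each library left out in turn, and offsets that remove a smooth trend on length and GC (mgcv 1.9.3, basis size 6 per axis, prior count 2, lengths from GENCODE M21, GRCm38). The fits were tested on simulated counts. Labels call samples biological replicates. Replicates differed beyond counting noise (chi-square per gene 12.5 to 292).

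The 9 genes and all lists were chosen with earlier results of these data known. Named beside the 9 were Tet2, up to 4 genes per pathway list that passed with the smallest p (else the gene with the smallest p), the 2 most abundant of each marker list that is described, and the 2 nearest patterns per gene, leaving out predicted and unnamed genes and clones; others named were chosen after their values were seen. One gene that this rule names is not reported here. Lists of B cell, mast cell, fibroblast, mural, cardiomyocyte, atrial, mesothelial and adipocyte markers were also counted (higher and lower of those tested: 0 and 1 of 3, 1 and 2 of 5, 2 and 3 of 6, 2 and 2 of 6, 3 and 2 of 6, 0 and 3 of 3, 1 and 0 of 1, and 0 and 0 of 2).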

Additional observations from a re-analysis of the deposited data

How the results depend on the processing

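Il1b and Pycard were lower and past the test in all 21 alternatives run. Casp1 passed in all 11 without trend removal and in 1 of 10 with it. The number of the 9 genes called lower was 4 as reported, 2 with the trend removed, also with the replicate block, the merged exon length or the RefSeq end of Pycard added. With 1 library left out it was between 3 and 5 as counted, and between 2 and 3 with the trend removed as well. The number called higher, 0 as reported, was 2 on library totals and on log2(TPM + 1), 1 with no filter, and between 0 and 1 with a library left out. Library totals called 6534 of all 14370 tested genes higher, log2(TPM + 1) 7166 of 14370, and the fit with no filter 4992 of 31220. Among all genes 4806 were higher and 4231 lower as reported. With the trend removed, 3145 were higher (2743 with the replicate block, 3143 with the RefSeq end of Pycard). With a library left out, higher genes ranged from 3370 to 5928 and lower genes from 2479 to 5250. With WT replicate 1, 2 or 3 or TET2KO replicate 1, 2 or 3 left out and the trend removed, higher genes numbered 1996, 2286, 2091, 2335, 4137 and 2021 and lower genes 2236, 2619, 2168, 2542, 4537 and 2014. Lower genes numbered 2270 on library totals and 1832 on log2(TPM + 1). Tet2, at 1.49 as reported, was 0.27 with the trend removed, 0.27 with the replicate block as well, 0.38 with merged exon length and 0.27 with the RefSeq end of Pycard, and between 1.27 and 1.69 with a library left out. With the trend removed as well these 6 values were 0.33, 0.31, 0.20, 0.29, 0.18 and 0.36, in the same order. Il33 changed sign with the trend removed, at 0.034, with the replicate block at 0.032, with merged exon length at 0.075 and with the RefSeq end of Pycard at 0.034. Leaving a library out as well gave 0.10 without WT replicate 1, 0.023 without WT replicate 3, 0.079 without TET2KO replicate 1 and 0.093 without TET2KO replicate 2. Il1r1 was -0.35 with the trend removed and without TET2KO replicate 2. The cause of these changes was not tested. The replicate numbers pair no libraries (Pearson's r of same-numbered deviations 0.0386, -0.231 and -0.0126). With the replicate block Il33 missed the threshold (-0.70, adjusted p = 0.097) and the number called lower was 3. Depth limits Nlrp3, Il18 and Il1b, with at most 24, 27 and 67 reads in a library.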

Other observations

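The neighbours that share sequence with these genes held few reads. Il1bos, an antisense locus at Il1b whose exons overlap it by 25 nt, had 0, 0 and 0 reads in libraries labelled TET2KO and 4, 2 and 2 in those labelled WT. Bco2 and Tex12, which overlap Il18 outside its exons on the opposite strand, had 9, 7 and 3 and 1, 0 and 0 reads in libraries labelled TET2KO, against 3, 10 and 6 and 0, 0 and 0 in those labelled WT. Gm20319, opposite Il1rap, had 0 reads in every library.

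Cxcl2, the gene of a neutrophil chemokine that was too rare to test, had 6, 1 and 0 reads in libraries labelled TET2KO and 27, 9 and 7 in those labelled WT. Naip6, a sensor of bacterial flagellin in mice, had 19, 11 and 16 reads in libraries labelled TET2KO and 1, 4 and 2 in those labelled WT (log2 fold change 2.03 ± 0.50, adjusted p = 0.011 as counted; 1.24 ± 0.52, adjusted p = 0.080 and not past the test, with the trend removed). These genes were singled out after their values were seen.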
